A study of Mus musculus with 2 samples.

Results

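The nuclear respiratory chain genes are the protein-coding genes of the nuclear genome that encode subunits, and some assembly factors, of the 5 complexes of oxidative phosphorylation. They were chosen by symbol from the GENCODE M21 annotation of mouse chromosomes 1 to 19 and X: symbols that start with Nduf, Uqcr, Atp5 or Cox4 to Cox8, and the 4 symbols Sdha, Sdhb, Sdhc and Sdhd. The rule found 94 gene entries among 21755 protein-coding genes. They carry 93 symbols, because Atp5o has a second entry, a read-through annotation of 242585 bp on chromosome 16 (ENSMUSG00000116933.1). Of the 94 entries, 86 were treated as general members and 8 as tissue-restricted isoforms, from textbook knowledge of where each isoform is used. The rule uses symbols and no measured value.

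Accessible chromatin was mapped, per the labels, with ATAC-seq on primary T-helper 1 cells from mice of the strain C57BL/6NJ. The series has 2 biological replicates of 1 group and nothing to contrast it with. ATAC-seq marks open DNA by the insertion of sequencing adapters with a transposase. Region names in the lists carry the unexplained words ASTARR and insert, so it is not known whether these are ordinary ATAC-seq libraries or fragments made for a reporter assay, and the term open follows the labels. The labels give no further treatment or time, list sex as not collected and age as unknown, and place both biosamples under 1 donor identifier without saying whether the cells came from separate animals, so the spread between replicates may be technical. With 1 group there is no test between conditions, and the values below are levels in each replicate, replicate 1 before replicate 2.

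In the respiratory chain, complex I takes electrons from NADH and complex II takes them from succinate. Coenzyme Q carries them to complex III, cytochrome c carries them on to complex IV, which reduces oxygen, and complex V makes ATP from the proton gradient that complexes I, III and IV build. Most subunits are encoded in the nucleus and a few in mitochondrial DNA, and several complex IV subunits have isoforms used mainly in muscle, testis, lung or hypoxic cells. NRF1, the ETS-family factor GABP, YY1 and the estrogen-related receptors are known regulators of these genes, and T cells raise mitochondrial respiration along with glycolysis when they are activated.

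The lists held 98875 regions in replicate 1 and 91488 in replicate 2, and the regions of both lists that overlapped by at least 1 bp were joined into 84373 shared regions on chromosomes 1 to 19 and X. A gene was called open where a shared region lay within 1 kb of one of its annotated starts. The label was checked against markers. All 5 T cell markers and all 5 Th1 markers were open, among them the gene of the Th1 factor T-bet, Tbx21 (signal 5.48 and 5.65), and that of interferon-γ, Ifng (7.25 and 6.55). The signals of these markers ranked low among open genes, with a median percentile of 16.9 for T cell and 11.2 for Th1 markers, and were lowest at Cd4 (2.29 and 2.33) and Cxcr3 (3.57 and 3.03). None of 3 B cell markers and none of 3 myeloid markers was open. An open promoter is not expression: 3 of 8 markers of heart and skeletal muscle (Ckm, Myl2, Tnni3), 2 of 7 of testis and germ cells (Prm1, Tnp2) and 1 of 3 of hepatocytes (Apoa1) were open as well. The open muscle markers had a median percentile of 19.4, so signal did not set the labelled cell type apart. The lists do not show whether such openings come from the T-helper 1 cells or from other cells, and this was not tested.

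The DNA just upstream of the start is shown for 2 pairs of tissue-restricted and general isoforms, because the pairs differ in CpG content and in 1 of them the calls differ, and for 4 open members that carry the motifs counted later. All have the same length, end at the base before the start, contain no annotated exon and are given 5′ to 3′ on the strand of the gene, from the RefSeq sequence of GRCm38.p6, which is mm10. Capitals mark matches on either strand to the NRF1, ETS or ERR motif spelled out below. The muscle isoform Cox6a2, whose promoter was not open, is chr7:128206388-128206532 on the minus strand, and its general counterpart Cox6a1 is chr5:115348982-115349126 on the minus strand. Cox7a1, the muscle isoform that was open, is chr7:30183999-30184143 on the plus strand, and its general counterpart Cox7a2 is chr9:79759879-79760023 on the minus strand.
Cox6a2: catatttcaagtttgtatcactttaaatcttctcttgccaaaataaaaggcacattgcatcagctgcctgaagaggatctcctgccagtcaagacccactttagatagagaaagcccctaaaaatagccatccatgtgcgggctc
Cox6a1: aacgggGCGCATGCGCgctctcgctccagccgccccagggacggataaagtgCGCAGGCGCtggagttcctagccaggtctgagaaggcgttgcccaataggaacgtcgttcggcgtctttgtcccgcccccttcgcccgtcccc
Cox7a1: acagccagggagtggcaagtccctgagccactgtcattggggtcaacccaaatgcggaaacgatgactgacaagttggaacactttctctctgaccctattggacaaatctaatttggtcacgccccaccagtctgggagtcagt
Cox7a2: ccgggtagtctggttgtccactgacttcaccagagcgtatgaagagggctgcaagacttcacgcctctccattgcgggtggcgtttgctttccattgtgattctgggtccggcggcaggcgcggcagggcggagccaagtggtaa
The Cox6a2 stretch holds 1 CpG and 42.8% G and C, and the Cox6a1 stretch 17 CpGs and 66.9%. Cox7a1 holds 3 CpGs and 51.7%, and Cox7a2 holds 10 and 60.0%. Neither muscle isoform has a capital. Cox6a1 has 2 NRF1 matches, from -139 to -131 and from -93 to -85 (the base before the start is -1, and overlapping matches are counted as 1), while Cox7a2 has none.

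A further 4 stretches, from open members, show 1 kind of motif each. Ndufs5, a supernumerary subunit of complex I, is chr4:123718203-123718347 on the minus strand and has an NRF1 match from -81 to -73. Atp5mpl, a small membrane subunit of complex V, is chr12:111966978-111967122 on the minus strand and has NRF1 matches from -93 to -85 and from -20 to -12. Uqcr11, a small subunit of complex III, is chr10:80406831-80406975 on the minus strand and has an ETS match from -57 to -50. Atp5g3, which encodes the c subunit of the complex V rotor, is chr2:73911327-73911471 on the minus strand and has an ERR match from -52 to -44.
Ndufs5: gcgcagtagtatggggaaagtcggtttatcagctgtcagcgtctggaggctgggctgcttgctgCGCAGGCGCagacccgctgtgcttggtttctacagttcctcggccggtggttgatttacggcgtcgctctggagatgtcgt
Atp5mpl: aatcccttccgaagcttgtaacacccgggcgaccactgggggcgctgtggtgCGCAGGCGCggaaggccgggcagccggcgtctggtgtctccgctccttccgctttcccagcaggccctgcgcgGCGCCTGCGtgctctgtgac
Uqcr11: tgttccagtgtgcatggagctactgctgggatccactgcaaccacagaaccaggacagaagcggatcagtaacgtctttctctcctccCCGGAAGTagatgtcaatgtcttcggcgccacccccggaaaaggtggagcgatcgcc
Atp5g3: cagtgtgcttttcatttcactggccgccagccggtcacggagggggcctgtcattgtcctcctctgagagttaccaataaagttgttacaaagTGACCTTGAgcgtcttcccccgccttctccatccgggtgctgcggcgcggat
All 4 genes were open, with a strongest promoter signal of 18.1 and 16.3 for Ndufs5, 14.7 and 14.2 for Atp5mpl, 9.06 and 9.13 for Uqcr11 and 11.9 and 10.9 for Atp5g3.

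Nearly all general members had an open promoter in these cells, and most tissue-restricted isoforms did not. In all, 87 of 94 members were open, or 92.6% (exact binomial 95% interval 85.3 to 97.0), beside 66.4% of all protein-coding genes. Among general members 85 of 86 were open (98.8%, interval 93.7 to 99.97), and the exception was the second Atp5o entry. Among tissue-restricted isoforms 2 of 8 were open (25.0%, interval 3.19 to 65.1). The intervals cover counting over genes alone, and genes are not independent replicates.

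Over all genes, openness went with the CpG content of the promoter, taken from 250 bases before to 50 bases after 1 start per gene. Members whose ratio of observed to expected CpG was at least 0.6 were open in 68 of 68 cases, beside 93.5% of the 10263 protein-coding genes of that kind. Below 0.6, 19 of 26 members were open, beside 42.3% of 11492 genes. All 8 tissue-restricted isoforms lay below 0.6, where 2 were open, and of the 18 general entries below 0.6, 17 were open. Among general members openness thus differed little between the CpG classes, and the exception was again the second Atp5o entry. Atp5j2, a membrane subunit of complex V, and Atp5f1, a stalk subunit, were open at CpG ratios of 0.104 and 0.217. The ratio belongs to 1 start per gene, while openness counted any annotated start. From the start used for the ratio, the summits lay 0.54 kb downstream in both replicates for Atp5j2. For Atp5f1 they lay 0.684 and 0.811 kb downstream, and its region did not reach the stretch used for the ratio. These 2 ratios therefore do not describe the DNA at the summits. No tissue-restricted isoform had a ratio of at least 0.6, so their openness at higher CpG content could not be examined.

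The signal of a region is its enrichment as the authors' caller gave it, on a linear scale, and a gene is described by its strongest promoter region. The 87 open members had a median signal of 13.3 in replicate 1 and 13.5 in replicate 2, and all open genes had 11.3 and 11.1. Ranked among all open genes, the median member stood at percentile 71.3 as a mean over both replicates, where the median gene stands at 50.1. Members ranged from 4.51 and 3.54 (Cox7b) to 19.4 and 18.3 (Sdhc), so that they differed among themselves far more than between replicates. In every open member both replicates lay within 1.5 times of each other, and the widest ratio was 1.27, in Cox7b.

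**Figure D1:**
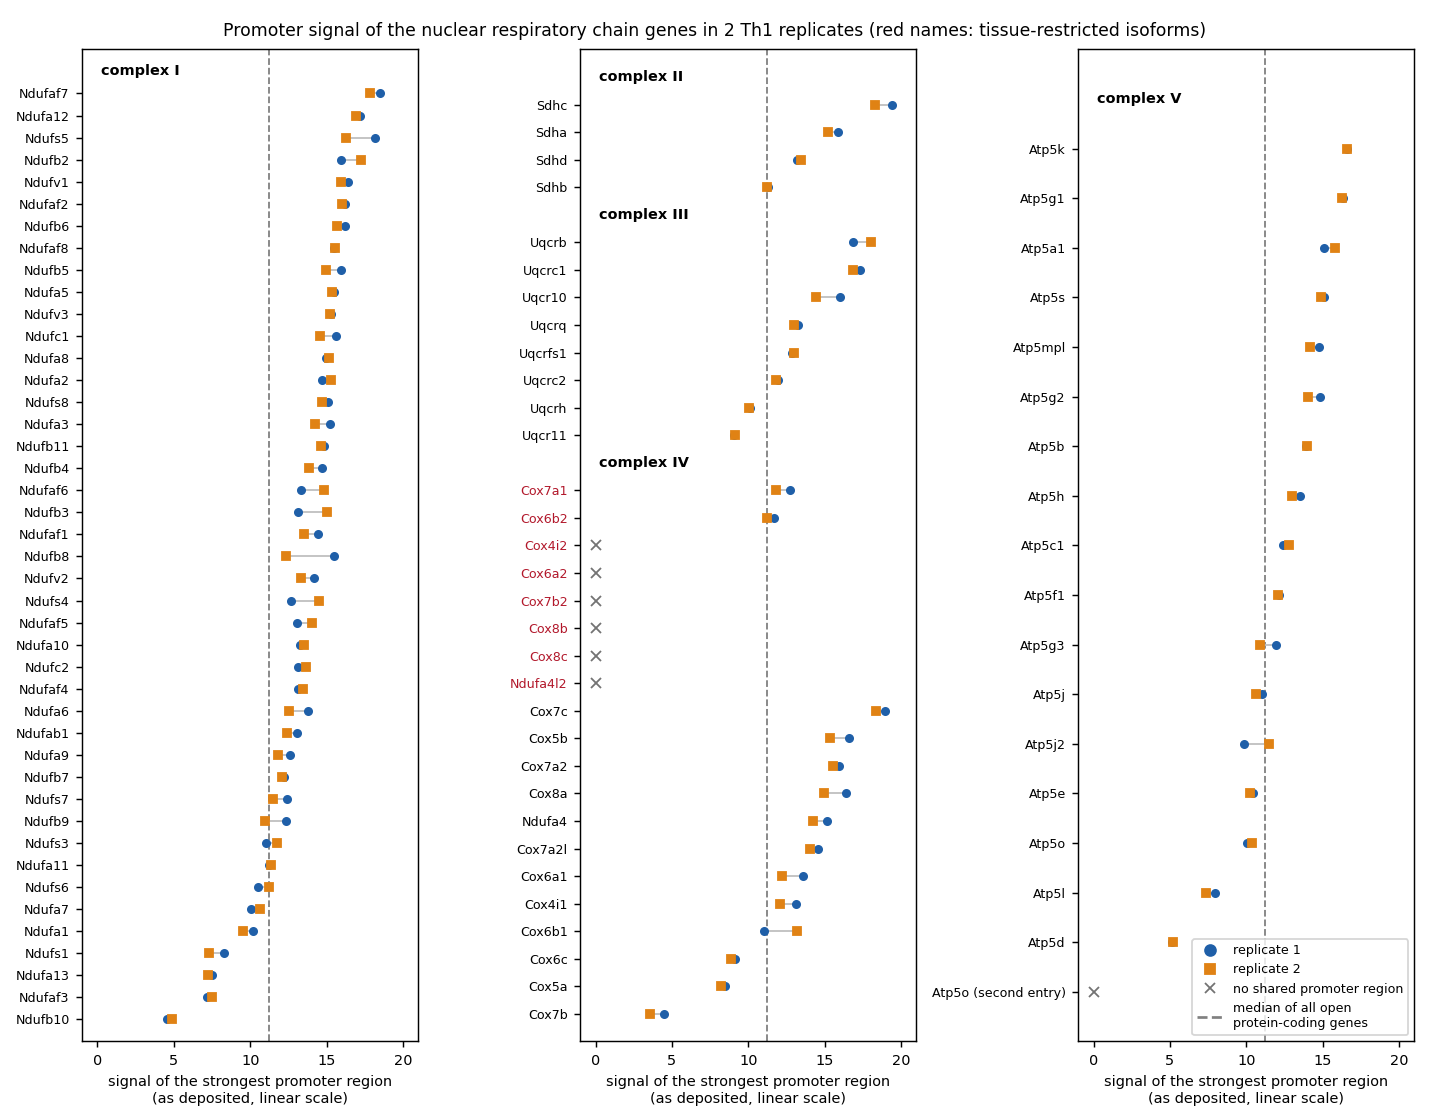
Signal of the strongest promoter region of members in replicate 1 (circles) and replicate 2 (squares), by complex, with tissue-restricted isoforms in red and listed before the general members of complex IV. Not every complex I member is drawn. Crosses at 0 are members without a shared promoter region, and the dashed line is the mean over both replicates of the median of all open protein-coding genes. The 2 open isoforms sit close to that line, while Sdhc, Cox7c and Ndufaf7 lie far above it and Cox7b, Ndufb10 and Atp5d far below.

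All 44 complex I members were open, with a median signal of 14.0 and 13.9. This complex oxidises NADH and is the largest of the chain. Its 7 nuclear-encoded core subunits, which carry the flavin and the iron-sulfur clusters, had medians of 14.2 and 13.3. The highest was Ndufv1, the subunit that binds NADH and the flavin, at 16.4 and 15.9 (chr19:4012317-4013344). The lowest was Ndufs1, an iron-sulfur subunit, at 8.25 and 7.31 (chr1:63176094-63177509).

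The 29 supernumerary subunits, which surround the core, had medians of 13.8 and 13.8. Ndufa12 had 17.2 and 16.9 and Ndufs5 had 18.1 and 16.3, the highest ranks in this class. Ndufb10, a subunit of the membrane arm, had 4.58 and 4.85 at the stronger of its 2 promoter regions (chr17:24723382-24724750), the lowest rank of the complex. Ndufa13 also stood low, at 7.48 and 7.23, and its region had its summit at -725 bp from the nearest Ndufa13 start, that is upstream of it, in both replicates. Starts of Tssk6 and Yjefn3 also lie within 1 kb of this region, and the lists cannot tell which gene the signal belongs to.

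The 8 assembly factors had medians of 13.9 and 14.4. Ndufaf7, a mitochondrial methyltransferase, had the highest rank of complex I at 18.5 and 17.8 (chr17:78936457-78937695). Ndufaf3, which takes part in early assembly, had the lowest of the 8 at 7.19 and 7.49. The 3 classes of complex I thus had similar medians, and each class held both high and low members.

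Complex II, which oxidises succinate, was open at all 4 genes. Sdhc, a membrane anchor, had 19.4 and 18.3 (chr1:171150168-171151141), the highest rank of all 94 members. Sdha, the flavoprotein, had 15.9 and 15.2, and Sdhd, the other membrane anchor, had 13.2 and 13.5. Sdhb, the iron-sulfur subunit, was the lowest at 11.3 and 11.2 (chr4:140960910-140962175), close to the median gene. The 2 anchors, which form 1 membrane domain, did not overlap in their replicate values.

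All 8 complex III genes were open, with medians of 13.0 and 13.0. Uqcrb, a ubiquinone-binding subunit, was the highest at 16.8 and 18.0 (chr13:66904664-66905829), and Uqcrc1, a core protein, had 17.3 and 16.8. Uqcr11 was the lowest at 9.06 and 9.13 (chr10:80405957-80408315). Uqcrfs1, the Rieske iron-sulfur protein, had 12.9 and 13.0. Uqcrb and Uqcrc1 overlapped in their replicate values, and both lay above the other 6 genes.

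The 12 general genes of complex IV were open, with medians of 14.1 and 13.6. Cox7c was the highest at 18.97 and 18.4 (chr13:86046190-86047158). Cox4i1, which encodes the general form of the largest nuclear-encoded subunit, had 13.1 and 12.1, and Cox7a2l, which links complexes into supercomplexes, had 14.6 and 14.0. Cox7b was the lowest of all open members at 4.51 and 3.54 (chrX:106015439-106016025), and its 2 neighbouring regions, at promoters of other genes, reached 12.1 and 10.2 upstream at -3.74 and -3.82 kb, and 13.1 and 11.9 downstream at 11.4 and 11.5 kb. Among the 50000 regions of highest −log10 p in each list, Cox7b lost its call, and no other member did.

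All 17 complex V genes other than the second Atp5o entry were open, with medians of 12.4 and 12.8. Atp5k, which encodes the membrane subunit e, was the highest at 16.6 and 16.6 (chr5:108433924-108434822). Atp5d, the delta subunit, was the lowest at 5.12 and 5.21 (chr10:80141956-80142873), with 3 promoter regions spread over its annotated starts. The 3 genes that encode the same mature c subunit of the rotor differed: Atp5g1 had 16.3 and 16.2, Atp5g2 had 14.8 and 14.1, and Atp5g3 had 11.9 and 10.9. No pair of these 3 overlapped in its replicate values.

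The second Atp5o entry had no shared region within 1 kb of its start, and 20 shared regions in its window of gene and 20 kb. The regular Atp5o entry, a subunit of the stalk, was open at 10.02 and 10.4. The annotation tags the start of the second entry as not found. It lies inside the regular Atp5o gene, and the summit of the regular promoter lay at -4.69 kb from it in both replicates, beyond the 1 kb limit.

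The 8 tissue-restricted isoforms were compared with their general counterparts in the same cells. Cox6a2, used in heart and skeletal muscle, had no promoter region, and its 1 shared region lay upstream, at -1.98 kb from the start in both replicates, with signal 7.20 and 6.76 (chr7:128208167-128208644). Its counterpart Cox6a1 had 13.6 and 12.2 at the promoter. Cox8b, used in muscle and brown fat, had none within 1 kb and an upstream region at -2.95 kb with 7.44 and 7.37, while Cox8a had 16.4 and 14.9 at the promoter.

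Cox8c and Cox7b2, both known from testis, had no promoter region. Cox8c had 1 shared region in its window, upstream at -13.5 and -13.4 kb, with 6.51 and 5.22. Cox7b2 had 0 shared regions over its 105382 bp and 20 kb on either side, where genes of its length class had a median of 8. Its counterpart Cox7b was open, though at the low values given above.

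Ndufa4l2, known as induced in hypoxia, had no region within 1 kb and an upstream one at -2.05 kb with 6.34 and 6.58, while Ndufa4, a subunit of complex IV despite its name, had 15.2 and 14.2 at the promoter. Cox4i2, the lung and hypoxia isoform, showed 1 region at its start, called in replicate 2 alone, with a signal of 4.76 and a −log10 q of 11.3 (chr2:152753754-152754573). Its counterpart Cox4i1 had 13.1 and 12.1. Cox4i2 is thus the 1 member whose call differs between replicates.

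The 2 open isoforms were Cox6b2, known from testis, and Cox7a1, known from muscle and brown fat. Cox6b2 had 11.7 and 11.3 (chr7:4751846-4753422), and its counterpart Cox6b1 had 11.1 and 13.2. Cox7a1 had 12.7 and 11.8 (chr7:30183866-30184602), and its counterpart Cox7a2 had 15.9 and 15.6. Cox6b2 therefore overlapped with Cox6b1, while Cox7a1 lay below Cox7a2 in both replicates. Both summits lay at the start itself, 10 bp downstream in both replicates for Cox6b2, and upstream at -57 and -14 bp for Cox7a1. Neither has another protein-coding start within 1 kb. Among marker genes of the tissues that use these isoforms, 3 of 8 for heart and skeletal muscle and 2 of 7 for testis were open, with the highest signals at 7.39 and 7.32 (Myl2) and 8.87 and 7.50 (Prm1). The 10 T cell and Th1 markers had signals up to 10.7 in replicate 1 (Cd28) and 9.71 in replicate 2 (Cd3e), so the open markers of muscle, testis and T cells all lay below both isoforms, and this comparison does not separate the cells' own markers from those of other tissues. The part of other cells in the openness of Cox6b2 and Cox7a1 was not tested.

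**Figure D2:**
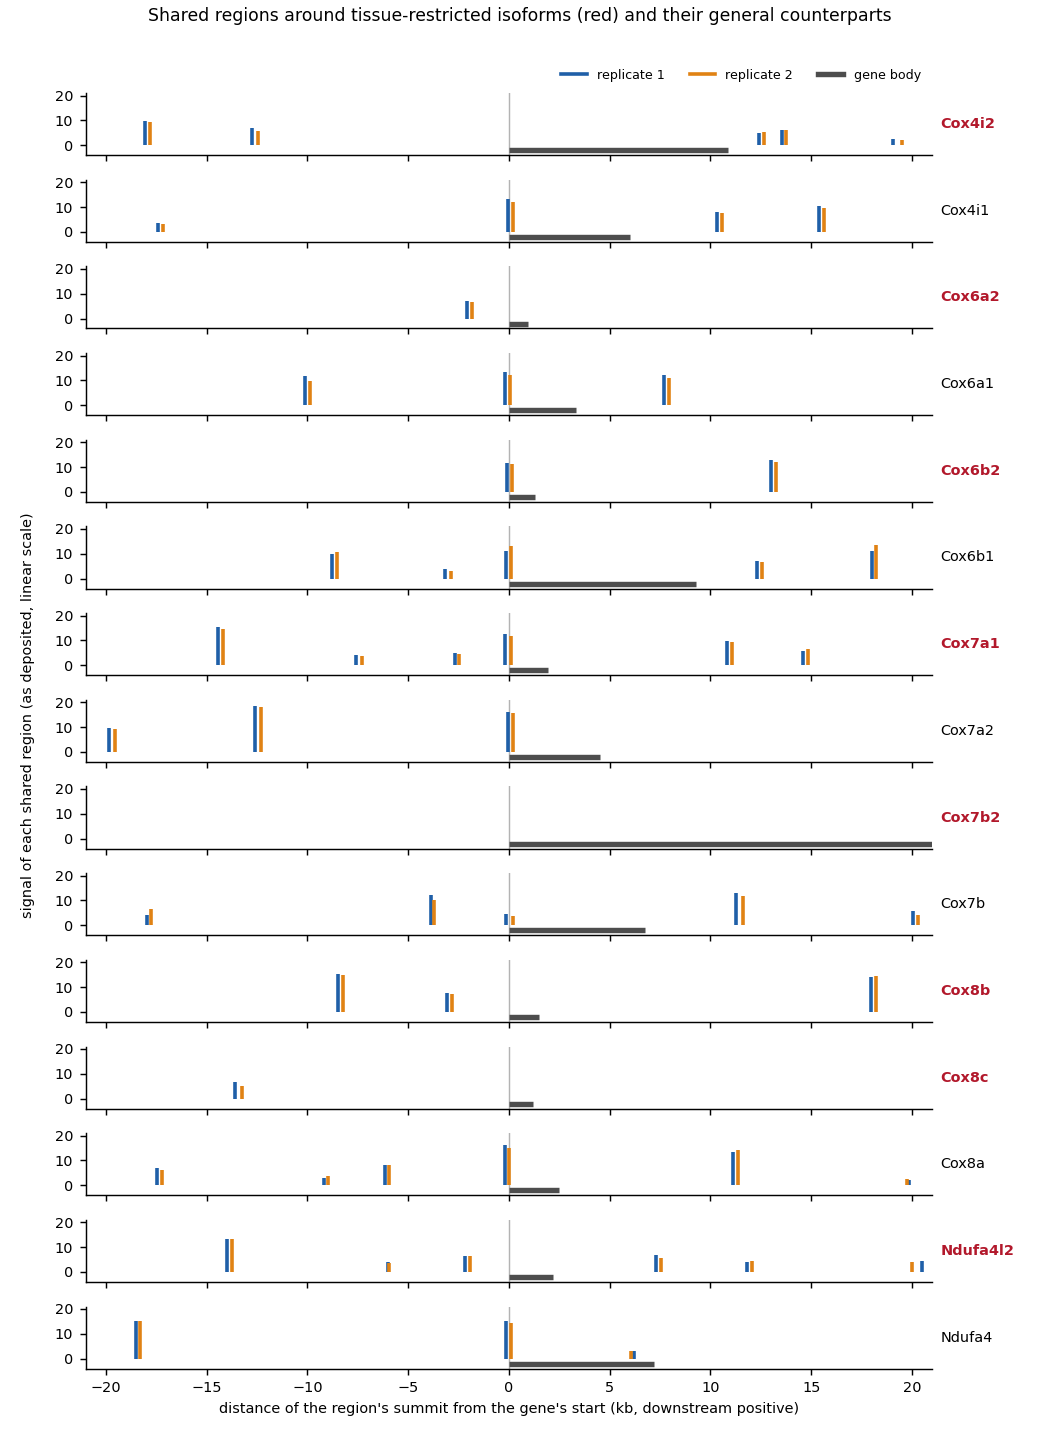
Shared regions within 21 kb of the start of each tissue-restricted isoform (red) and its general counterpart, drawn at their summits with the height of the signal in replicate 1 (blue) and replicate 2 (orange), the bars of a pair set apart slightly to keep both visible. Every general counterpart has a bar at its start, Cox6b2 and Cox7a1 have one, and the other 6 isoforms have none. Cox8a is the counterpart of both Cox8b and Cox8c.

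The promoter regions of members were placed tightly on the start. The summit lay a median of 31 bp from the nearest annotated start in replicate 1 and 31 bp in replicate 2, and 80 and 82 bp in all open genes. It lay within 100 bp of a start in 77 and 74 of the 87 open members (88.5% and 85.1%), beside 56.5% and 55.9% of all open genes. The replicate summits of a member lay a median of 1 bp apart. Members had a median promoter region of 1278 bp and all open genes 1323 bp, so width differed little. A single promoter region was found in 82 of 87 open members (94.3%), beside 73.9% of all open genes.

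**Figure D3:**
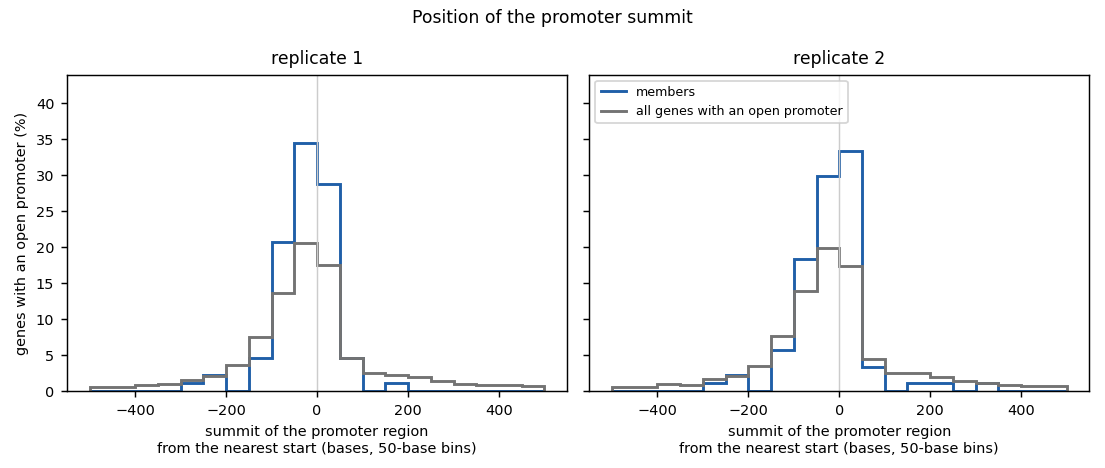
Share of genes with an open promoter by the position of the promoter summit, in bins of 50 bases from 500 upstream to 500 downstream of the nearest start, for members (blue) and all open protein-coding genes (grey), in each replicate. Members are concentrated within 100 bases of the start, with 77 and 74 of 87 there.

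Many members shared their promoter region with a neighbour. Another protein-coding gene had a start within 1 kb in 37 of the 87 open members (42.5%), beside 20.3% of all open genes. In 36 of the 37 a neighbour ran on the opposite strand, and the median distance between the nearest starts was 82 bp. Whether the genes of such pairs point away from each other or overlap was not computed. Complex I held 21 of the 37, complex V 7, complex III 4, complex II 3 and complex IV 2. At such pairs 1 region serves both starts, and the lists cannot tell which gene the signal belongs to.

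Several neighbours are themselves mitochondrial genes. Ndufb5 lies 20 bp from Mrpl47 and Ndufs6 29 bp from Mrpl36, both of which encode mitochondrial ribosomal proteins. Sdhd lies 98 bp from Timm8b, a chaperone of mitochondrial protein import. Atp5j, a stalk subunit of complex V, lies 31 bp from Gabpa, which encodes the DNA-binding subunit of GABP, and both share the region with signal 11.1 and 10.7.

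Other neighbours serve translation or RNA processing. Ndufs1 lies 3 bp from Eef1b2, a translation elongation factor, Ndufa7 lies 10 bp from Rps28, a ribosomal protein, and Ndufb11 lies 3 bp from Rbm10, a splicing regulator. The median percentile was 73.8 in the 37 members with a near neighbour, and 69.8 in the 50 open members without one. The 57 members without a near neighbour include all 7 that were not open.

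Motifs were searched on both strands in 1 window per gene, from 250 bases before to 50 bases after the start, and each motif was counted on its own even where matches of different motifs overlapped. NRF1 was searched as GCGCNTGCG, ETS, the family of GABP, as CCGGAAGT, YY1 as AAGATGGCG and ERR as TCAAGGTCA. A match describes letters in a window, not a bound site. NRF1 was found in 22 of 94 members (23.4%), beside 8.43% of all protein-coding genes, the widest gap in percentage points of the 11 motifs. Among open genes alone it was found in 25.3% of members and 12.0% of all, and there the gap was wider for SP/KLF, which was lower in members (43.7%) than in all open genes (61.3%). In genes with a CpG ratio of at least 0.6 it was found in 20 of 68 members (29.4%), beside 16.6% of 10263 genes, and both shares were higher in such genes than over all CpG ratios.

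Most NRF1 matches of members lay close to the start. Counting overlapping matches as 1, there were 27 matches in the 22 members, of which 22 lay within 100 bases of the start (81.5%, beside 70.7% of the matches in all protein-coding genes). Sdha had 3, and Cox6a1, Ndufb4 and Atp5mpl had 2 each. Complex I held 10 of the 22 members, complex V 6, complex III 3, complex II 2 (Sdha and Sdhd) and complex IV 1 (Cox6a1). Within 100 bases on either side of the promoter summit, 23 of 87 open members had NRF1 in replicate 1 and 24 in replicate 2 (26.4% and 27.6%), beside 9.36% and 8.98% of all open genes. Members with NRF1 had a median percentile of 70.3, and open members without it 71.5, so both kinds of member had nearly the same rank.

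ETS was found in 6 members (6.38%: Atp5h, Cox8a, Ndufs1, Uqcr11, Uqcrh and Uqcrq), beside 5.05% of all genes, so its share was near the background. Of these 6, 3 belong to complex III. YY1 was found in 5 (5.32%, among them Atp5h, Ndufa2, Ndufa9 and Ndufaf8), beside 1.85%, and in Ndufa2, Ndufa9 and Ndufaf8 it lay between 10 and 42 bases downstream of the start. ERR was found in 2 (Atp5g3 and Sdhd), beside 0.4% of all genes. At least 1 of NRF1, ETS and YY1 was found in 30 members (31.9%), beside 14.2% of all genes, and only Atp5h and Uqcr11 had more than 1 of these 3. None of the 8 tissue-restricted isoforms had NRF1, ETS, YY1 or ERR. All 8 lay below a CpG ratio of 0.6, where NRF1 was found in 1.12% of all protein-coding genes. So few genes would hold very few matches, and no difference can be read from this count.

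The shares of the general promoter motifs SP/KLF and NFY and of the E-box were near those of all genes. SP/KLF (GGGCGG) was found in 41 members (43.6%), beside 45.7% of all genes and 61.3% of open ones. NFY (CCAAT) was found in 36 (38.3%), beside 38.4%, and CRE (TGACGTCA) in 5 (5.32%), beside 2.53%. The E-box CACGTG, bound by Myc among others, was found in 8 (8.51%), beside 7.82%. Motifs of factors that act in T cell activation and in Th1 cells were searched too. AP-1 (TGANTCA) was found in 4 (4.26%), beside 6.63%, while RUNX (TGTGGTTT) was found in 0 members, beside 1.5%, and T-box (AGGTGTGA) in 0, beside 1.13%. At such backgrounds 94 genes would hold very few matches, so no difference can be read from a count of 0.

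**Figure D4:**
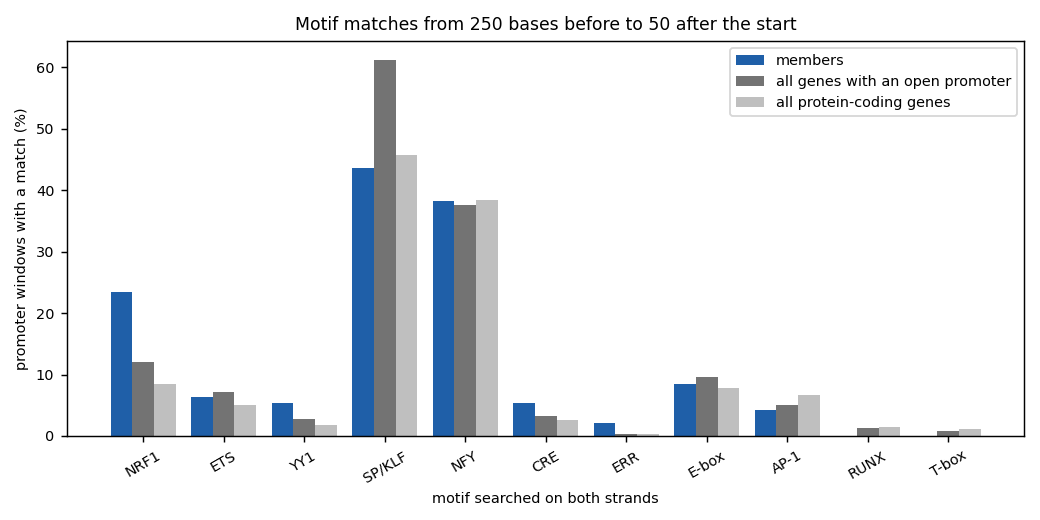
Share of promoter windows with a match to each motif among the 94 members (blue), all open protein-coding genes (dark grey) and all protein-coding genes (light grey). NRF1 stands at 23.4% in members, against 12.0% and 8.43%, while SP/KLF is lower in members (43.6%) than in open genes (61.3%) and NFY differs little.

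Beyond the promoters, the windows of gene and 20 kb on either side held 432 distinct shared regions. Of these, 93 were promoter regions of members, 122 were promoter regions of other genes only, and 217 were at no annotated promoter. The share at no promoter was 50.2% in the member windows, and 74.5% of all 84373 shared regions. The windows are drawn around genes and so take in promoters by design. The share in windows of all genes was not computed, so no trait of the members can be read from this difference. Members had a median of 4 regions per window and all protein-coding genes 5. Members are short, with a median length of 7419 bp beside 17414 bp, and genes of their length classes had a median of 3. Against the median of its own length class, 51 members had more regions (54.3%, beside 45.1% of all genes), 19 had as many and 24 had fewer.

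Among the most crowded windows were those of the second Atp5o entry (20 regions), Ndufaf2, an assembly factor (11), Atp5d (10), Ndufa13 (10) and Sdhb (9). At the other end, 7 of 94 members had exactly 1 shared region, beside 5.75% of all protein-coding genes, so this count was near the background. In 5 of the 7 it was their own promoter: Cox7c, Uqcrb, Ndufaf4, Ndufb5 and Ndufb11. The other 2 were Cox6a2 and Cox8c. The promoter held the strongest region of the window in both replicates in 46 of 87 open members (52.9%), beside 36.8% of all open genes. By complex this was so for 28 of 44 in complex I, 2 of 4 in complex II, 5 of 8 in complex III, 5 of 14 in complex IV and 6 of 17 in complex V, and for neither of the 2 open isoforms. The share of all open genes was not matched for gene length, and members are shorter, with a median of 4 regions per window beside 5. No trait of the members can therefore be read from the difference between 52.9% and 36.8%.

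The 217 regions at no promoter had a median signal of 6.10 and 6.14, and all 62835 such regions had 6.37 and 6.15. Within 100 bases on either side of their replicate 1 summit, AP-1 was found in 58 (26.7%), beside 30.8% of all such regions. RUNX was found in 11 (5.07%), beside 4.84%, T-box in 4 (1.84%), beside 1.86%, and NRF1 in 2 (0.922%), beside 0.329%. The same stretch around the replicate 1 promoter summit had AP-1 in 1 open member (1.15%), beside 6.66% of all open genes. The larger AP-1 share away from promoters was thus seen over all genes too, and is no trait of the members. The AP-1, RUNX and T-box shares were near those of all regions at no promoter, and the NRF1 share rests on 2 regions.

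Some regions within 1 kb of a member start were called in 1 replicate alone. In replicate 1 this held at Ndufb2 (signal 5.08), Ndufa6 (3.77), Atp5j (2.41) and Cox7b (2.75), and in replicate 2 at Cox4i2 (4.76). Of these genes, all but Cox4i2 also had a shared promoter region, so the extra regions changed no call of theirs.

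Genes that act with the chain but fall outside the symbol rule were open almost throughout. Of 71 such genes in 4 lists 70 were open, beside 66.4% of all genes. The 39 assembly factors outside the rule were all open, with a median percentile of 75.0, from Surf1, a complex IV assembly factor (7.02 and 7.12), to Coa4, a twin CX9C protein of complex IV assembly (18.9 and 19.5). Of the 6 electron carriers and related genes 5 were open, from Atpif1, the inhibitor of complex V (9.21 and 9.20), to Dhodh, which passes electrons from pyrimidine synthesis to coenzyme Q (18.7 and 17.2). The exception was Cyct, the testis form of cytochrome c, while the general form Cycs was open at 18.2 and 16.1.

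All 11 genes of coenzyme Q synthesis were open, with a median percentile of 37.1, below the 71.3 of the members. Coq8a, an atypical kinase, was the lowest (8.29 and 8.70) and Coq6, a hydroxylase, the highest (17.6 and 17.7). All 15 regulators and genes of mitochondrial DNA expression were open, with a median percentile of 54.2. Polrmt, the mitochondrial RNA polymerase, was the highest at 19.7 and 18.8, and Ppargc1a, the coactivator PGC-1α, the lowest at 6.09 and 6.30. Genes of NRF1, GABP, YY1 and the estrogen-related receptors were in this list, with 14.6 and 14.8 at Nrf1, 11.1 and 10.7 at Gabpa, 10.3 and 9.90 at Yy1 and 11.7 and 11.1 at Esrra.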

How the data were processed

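ATAC-seq region lists of 2 biological replicates of T-helper 1 cells on mm10 (per the labels) were used, 1 list per replicate. The aligner and the region caller are not stated, and the read depth is likewise not given in the sources used here, so no read-based interval is given. Each deposited list gives, per region, a signal value (enrichment), −log10 p and −log10 q and a summit, all by the authors, and what the signal is relative to is not stated. The display score of the deposited lists, written by the authors' caller, was not used. Region names in the deposited lists also include the unexplained terms masked and dedup.

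Overlapping regions of both lists (at least 1 bp) were joined, and genes, starts and sequences came from GENCODE M21 and RefSeq GRCm38.p6. A promoter region lay within 1 kb of a start, a window was the gene and 20 kb, and percentiles rank each replicate's signal among open protein-coding genes. Shares of all genes include the members. Work was done in Python 3.11.15 with pandas 2.3.3, numpy 2.4.6, scipy 1.17.1 and matplotlib 3.10.9, and the calls were tested on simulated data.

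The members, lists, motifs and alternatives were chosen with earlier results of these data known, namely a description of the whole series with its open promoters, gene lists and motifs. Any member could be named, always those without an open promoter, the isoforms with their counterparts, the highest and lowest of each complex and list, and the most crowded windows. Neighbours were named where their start lay within 1 kb. The single values of some genes are not reported here. No test between groups was made, since there is 1 group.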

Additional observations from a re-analysis of the deposited data

How the results depend on the processing

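Of 108 recomputed values under other settings, 85 stayed within the spread or within 1.5 times of the reported value and 23 moved. The number of open members (87) stayed within 1 of its value under stricter lists, stricter sharing, 500 bp, coding starts or summits alone. Under these settings 59.2% to 65.5% of all protein-coding genes were open, beside 66.4% in the main setting. Within 2.5 kb the number reached 90, beside 69.6% of all protein-coding genes. There 5 tissue-restricted isoforms were open instead of 2 (Cox6a2, Cox8b and Ndufa4l2 were added). Among members with no other start within 1 kb, 50 of 57 were open. The share of all protein-coding genes of that kind was not computed, so no trait of the members can be read from this count. The median percentile was 67.9 with the 50000 regions of highest −log10 p, 63.7 with −log10 q ranked and 63.7 with −log10 p ranked. The median number of regions per window was 3 with those 50000 regions, 1 in the gene body, 9.5 with 50 kb on either side and 2 outside promoters, and it was 5 with either replicate left out. The promoter held the strongest region of the window in 28 members with 50 kb. YY1 was found in 10 members from 500 bases before to 100 after the start. The shares of all genes under these wider windows are not given, so neither count can be read as a result about the members. Leaving out the second Atp5o entry, chosen after seeing the data, changed none of the 3 values it was run on. No paired analysis was possible because there is 1 group. Read depth is unknown, so a missing region says only that none was called. The other moved values concern the CRE, E-box, AP-1, RUNX and T-box motifs, whose counts are small. The cause of these changes was not tested.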

Other observations

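Mitochondrial DNA, which encodes the remaining 13 proteins of the chain, held 2 regions in each list, left out of all values above. In replicate 1 they spanned positions 131 to 4781 (signal 2.36) and 10886 to 16116 (2.68). In replicate 2 they spanned 152 to 4775 (2.25) and 10906 to 16111 (2.61). Together they covered 4 genes in full in both replicates, mt-Nd1, mt-Nd5 and mt-Nd6 of complex I and mt-Cytb of complex III. They covered mt-Nd2 by 83.6% and 83.0% and mt-Nd4 by 47.8% and 46.4%. The other 7 genes, among them the 3 of complex IV and the 2 of complex V, lay outside. Mitochondrial DNA is not packed in nucleosomes, and the lists do not say how its reads were treated, so these spans are given as values only.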
